A study of Mus musculus with 24 samples.

Results

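The Oas genes of the mouse code for the oligoadenylate synthetases and their relatives and lie on chromosome 5, the chromosome of Atxn2. The 8 members described here, Oas1a, Oas1b, Oas1c, Oas1g, Oas2, Oas3, Oasl1 and Oasl2, were chosen by gene family and position when the liver difference of Oas1g between the genotypes was already known. The array named 17097 genes, and 7 of the 8 members were among them, each with 1 probe set. Oas1a had no probe set of its own and has no value. No filter on low values was applied, so all 7 measured members entered every comparison of the main model.

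The samples were cerebellum, brainstem and liver of mice aged 18 months, with 4 arrays of Atxn2 Knock-In mice and 4 of wild type (WT) mice in each tissue, 24 in all. The Knock-In mice are homozygous for an expanded CAG repeat placed in the endogenous Atxn2 gene, whose own promoter drives it. The line began on a mixed background of C57BL/6 and another strain and was backcrossed to C57BL/6, and the WT mice were littermates from matings of heterozygotes. The sources do not say how much DNA of the other strain stayed around Atxn2, so that an effect of the repeat and one of the DNA that travels with it cannot be told apart. They do not state the sex of the animals on the arrays.

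In the antiviral response of mammals, type I interferons bind a receptor on the cell surface, receptor-bound kinases activate transcription factors, and these switch on a set of interferon-induced genes, the Oas genes among them. The active synthetases sense double-stranded RNA and make short oligoadenylates, a second messenger that leads to the arrest of protein synthesis in infected cells. Some members have no synthetase activity and act in other ways, such as Oasl1, which holds back the translation of Irf7, a transcription factor that amplifies the interferon response.

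In the gene table of assembly GRCm38.p6, Oasl2 and Oasl1 lie side by side, and 60 protein-coding genes separate Oasl1 from the main run of the family. That run reads Oas2, Oas3, Oas1e, Oas1c, Oas1b, Oas1f, Oas1h, Oas1g, Oas1a and Oas1d, 10 Oas genes, with a pseudogene between Oas1a and Oas1d. Oas1b is listed as a transcribed pseudogene in this assembly, which is that of C57BL/6J. Between Oas1d and Atxn2 there are 21 further genes, 15 of them protein-coding.

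The promoters of 5 members are shown because the family is known as interferon-induced, yet its measured members differed on these arrays. Oas1a, which has no value, is among the 5, and Oasl2 lies outside the main run. Each line gives the 250 bases before the RefSeq start of transcription, 5′ to 3′ on the strand of the gene, in GRCm38.p6. Capitals mark matches to GAAANNGAAA, the core of the interferon-stimulated response element, searched on both strands (TTTCNNTTTC on the other), where overlapping matches run together. The windows are chr5:120887614-120887863 (minus strand) for Oas1g, chr5:120907526-120907775 (minus strand) for Oas1a, chr5:120777660-120777909 (minus strand) for Oas3, chr5:120812515-120812764 (minus strand) for Oas1c and chr5:114896684-114896933 (plus strand) for Oasl2.
Oas1g: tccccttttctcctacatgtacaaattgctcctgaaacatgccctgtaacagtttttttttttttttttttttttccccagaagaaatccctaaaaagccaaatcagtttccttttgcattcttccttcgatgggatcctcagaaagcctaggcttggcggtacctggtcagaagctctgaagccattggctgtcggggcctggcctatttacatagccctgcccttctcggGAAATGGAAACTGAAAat
Oas1a: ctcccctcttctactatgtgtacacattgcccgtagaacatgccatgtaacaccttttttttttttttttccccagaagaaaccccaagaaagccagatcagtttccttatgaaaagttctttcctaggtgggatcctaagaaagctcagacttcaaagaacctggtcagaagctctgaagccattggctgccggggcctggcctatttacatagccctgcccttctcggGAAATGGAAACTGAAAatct
Oas3: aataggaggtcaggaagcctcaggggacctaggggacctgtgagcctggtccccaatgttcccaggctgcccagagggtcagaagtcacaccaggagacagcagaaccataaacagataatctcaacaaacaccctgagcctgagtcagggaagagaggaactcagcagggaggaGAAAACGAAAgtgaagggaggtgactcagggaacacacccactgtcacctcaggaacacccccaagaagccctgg
Oas1c: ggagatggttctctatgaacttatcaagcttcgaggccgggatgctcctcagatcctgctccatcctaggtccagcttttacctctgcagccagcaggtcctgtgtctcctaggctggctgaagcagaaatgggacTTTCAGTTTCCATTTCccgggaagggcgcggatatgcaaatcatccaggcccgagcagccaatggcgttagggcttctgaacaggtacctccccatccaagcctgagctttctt
Oasl2: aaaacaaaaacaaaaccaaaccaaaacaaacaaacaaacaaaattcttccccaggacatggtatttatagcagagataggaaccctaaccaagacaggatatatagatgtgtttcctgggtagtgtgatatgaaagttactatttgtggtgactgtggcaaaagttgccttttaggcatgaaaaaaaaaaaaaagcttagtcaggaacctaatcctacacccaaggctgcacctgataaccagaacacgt

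In windows of 300 bases, from 250 before the start to 50 after it, the RefSeq table held 6 of the 8 members, and 4 of these 6 held the motif. Of all 32851 windows of that length, 3.44% held it. In Oas1g a pair of overlapping matches began 18 and 12 bases before the start, and in Oas1a the same pair began 20 and 14 bases before it. The match of Oas3 began 75 bases before the start, and those of Oas1c, on the other strand, covered the stretch from 114 to 99 bases before it. Oasl1 and Oasl2 held no match in this window, nor did Oas1f and Oas1h, the neighbours of Oas1g that are not members. Oas1g and Oas1a shared 85.3% of the aligned positions of their windows, with an unbroken shared run of 73 bases, while no other pair of the 8 Oas windows passed 73.9%. Whether RNA of Oas1a also binds the probe set of Oas1g was not tested. A match is a description of the letters and no evidence of binding.

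Levels are log2 values after the authors' normalization, and a difference of 1 is a doubling. The hepatocyte, cerebellar and brainstem marker lists stood highest in the tissue they belong to: the 8 hepatocyte markers averaged 12.0 to 12.2 on the liver arrays and at most 3.30 on any brain array. The 6 measured cerebellar neuron markers averaged 10.8 to 11.2 in cerebellum and at most 7.96 elsewhere, and the 6 brainstem neuron markers 6.51 to 7.23 in brainstem and at most 4.06 elsewhere. The arrays of a group correlated with each other at 0.992 or more in both brain regions. In liver WT replicate 1 stood apart, with a lowest correlation of 0.954 with its group and the Oas values in liver are therefore given without it too. Those of the pathway and marker lists below include it. The number of arrays limits the precision of every value here.

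Oas1g, an active synthetase, was the member with the widest range. In WT liver its 4 arrays read 5.64, 5.99, 5.17 and 6.18, and in Knock-In liver 6.81, 7.95, 9.82 and 8.64. Every Knock-In liver array thus lay above every WT liver array, and the Knock-In arrays also lay far apart from each other. The means were 8.30 ± 1.26 (SD, n = 4) in Knock-In and 5.75 ± 0.44 (SD, n = 4) in WT liver, a difference of 2.56 (SE 0.41), or 5.89-fold. That SE comes from a spread shared among tissues, which is narrower than the spread of the Knock-In liver arrays. Since the members were chosen with the liver difference known, it is a description, and no test is attached to it. Without WT liver replicate 1 the difference was 2.52, and over all arrays left out in turn it ran from 2.05 to 3.06. Among all probe sets, Oas1g stood at the percentile 72.2 by its mean in WT liver and at 91.4 in Knock-In liver.

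In cerebellum Oas1g read 4.21, 4.39, 4.30 and 4.31 in WT and 4.37, 4.06, 4.70 and 4.91 in Knock-In mice. In brainstem it read 5.07, 5.84, 4.69 and 4.79 in WT and 5.01, 5.03, 6.08 and 5.38 in Knock-In mice. The genotypes overlapped in both regions. The differences were 0.20 (95% interval -0.64 to 1.05) in cerebellum and 0.28 (-0.57 to 1.12) in brainstem, neither past the threshold (adjusted p = 1 in both). The intervals leave room for changes up to about the size of a doubling, but they rest on a spread shared with liver. The SD of Oas1g was 0.07 in WT and 0.38 in Knock-In cerebellum, 0.52 and 0.50 in brainstem, and 1.26 in Knock-In liver. The shared spread is thus wider than that of the cerebellum arrays. The difference between the liver effect and the effect in cerebellum was 2.35 (SE 0.58), and that between liver and brainstem 2.28 (SE 0.58).

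**Figure D1:**
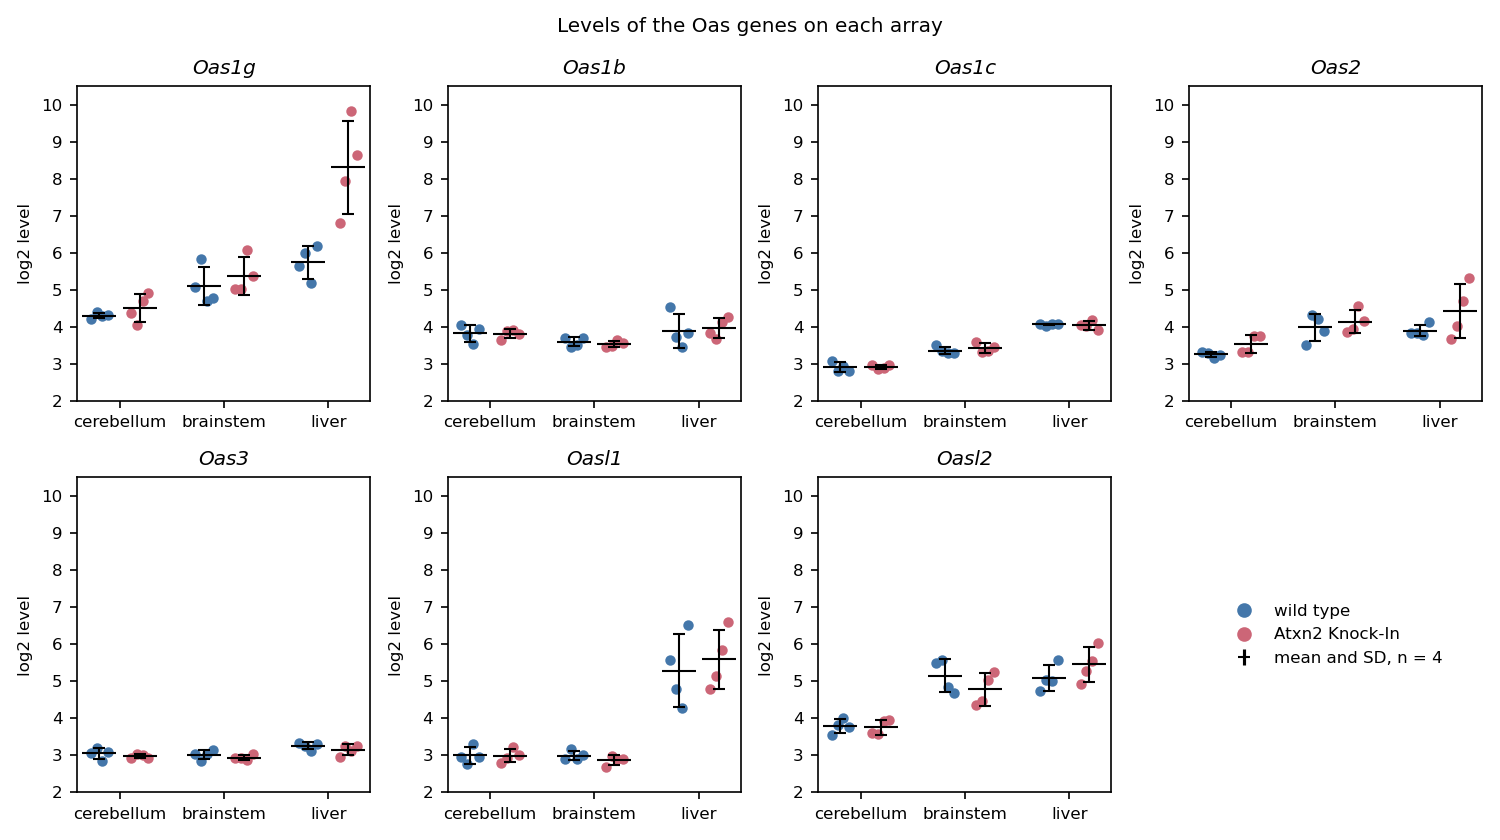
Log2 level (vertical axis) of the 7 measured Oas genes on each of the 24 arrays, by tissue (horizontal axis) and genotype, with the mean and SD of 4 arrays. Oas1g in Knock-In liver runs from 6.81 to 9.82, above all WT liver arrays, and of the other 20 pairs of groups only Oas2 in cerebellum separates by genotype.

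Oas2, a synthetase with a repeated catalytic unit, separated the genotypes in cerebellum by a small margin. Its WT cerebellum arrays read 3.31, 3.31, 3.15 and 3.25 and its Knock-In arrays 3.32, 3.32, 3.74 and 3.76. Every Knock-In value was above every WT value, but the first 2 lay just above the highest WT array, and the difference of 0.28 (SE 0.24) did not pass the threshold (adjusted p = 1). In liver the WT arrays read 3.84, 3.84, 3.78 and 4.14 and the Knock-In arrays 3.68, 4.01, 4.70 and 5.31, with overlap and a difference of 0.53 (SE 0.24). In brainstem the WT arrays read 3.52, 4.33, 4.22 and 3.88 and the Knock-In arrays 3.87, 3.95, 4.57 and 4.15, a difference of 0.15 (SE 0.24, adjusted p = 1).

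Oasl2, an active synthetase that also carries ubiquitin-like domains, read 4.74, 5.03, 5.02 and 5.58 in WT liver and 4.93, 5.29, 5.56 and 6.04 in Knock-In liver, a difference of 0.36 (SE 0.24). In brainstem it read 5.50, 5.56, 4.84 and 4.69 in WT and 4.36, 4.46, 5.03 and 5.26 in Knock-In mice. The direction there was the opposite one, at -0.37 (SE 0.24, adjusted p = 1), and the genotypes overlapped in both tissues. In cerebellum its 8 arrays lay between 3.55 and 4.02, with a difference of -0.03 (SE 0.24).

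Oasl1, the inhibitor of Irf7 translation, spread widely within both liver groups. Its arrays read 5.56, 4.78, 4.27 and 6.52 in WT and 4.79, 5.14, 5.85 and 6.59 in Knock-In liver, a difference of 0.31 (SE 0.34). With 1 array left out it ran from -0.03, without WT liver replicate 3, to 0.72, without WT liver replicate 4, and it was also below 0 without Knock-In liver replicate 4. In the brain regions all 16 arrays lay between 2.67 and 3.32, near the low end of the scale, and detection calls were not used. Oas1b, a relative without synthetase activity that is known for flavivirus resistance in wild mice and is truncated in most laboratory strains, read 4.54, 3.72, 3.46 and 3.84 in WT liver and 3.84, 3.67, 4.12 and 4.27 in Knock-In liver. The highest value of that set was WT liver replicate 1, and the liver difference was 0.09 (SE 0.17) with it and 0.30 without it, and turned to -0.06 without WT liver replicate 3 and to -0.01 without Knock-In liver replicate 4.

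Oas1c, a relative of the active synthetases, and Oas3, which makes long oligoadenylates, differed little between the genotypes. Oas1c differed by -0.02 in liver, 0.0046 in cerebellum and 0.08 in brainstem (SE 0.08 in each), and Oas3 by -0.11, -0.08 and -0.08 (SE 0.09 in each). The 24 arrays of Oas3 lay between 2.85 and 3.35, so that this probe set says little of a change in a gene expressed at a low level. Without WT liver replicate 1 the liver differences were 0.51 for Oas2, 0.40 for Oasl1, 0.24 for Oasl2, -0.02 for Oas1c and -0.08 for Oas3.

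**Figure D2:**
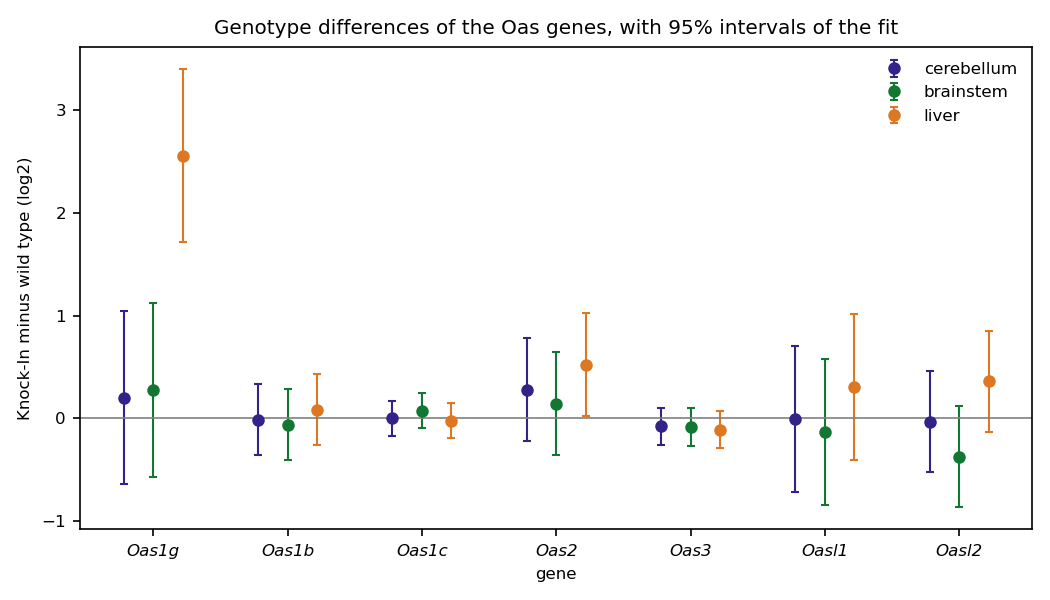
Knock-In minus WT difference (vertical axis, log2) of each measured Oas gene (horizontal axis) in 3 tissues, with 95% intervals of the limma model. Of the 14 brain intervals all include 0, and Oas1g in liver, at 2.56, is the value with which the family was chosen.

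Of the 7 probe sets, 0 passed an adjusted p of 0.05 in cerebellum, where 0.0444% of all 45037 probe sets passed, and 0 in brainstem, where 0.0155% passed. At an unadjusted p under 0.05 the count was 0 of 7 in both regions, against 1617 and 1877 of all probe sets in limma. In liver 0.147% of all probe sets passed, or 66. Oas1g was 1 of these, the value with which the family was chosen, and nothing is read from that count. The background in liver rested on WT liver replicate 1, without which 2878 passed, and became 0 probe sets when liver was fitted alone. The 7 had a median difference of -0.0068 for cerebellum, -0.06 for brainstem and 0.31 for liver, beside -0.0068, -0.01 and -0.0097 over all probe sets. Knock-In and WT arrays did not overlap for 1 of 7 in cerebellum (3.94% of all probe sets), 0 of 7 in brainstem (3.7%) and 1 of 7 in liver (2.76%). The test of a difference between tissues in the genotype effect passed for 0 of 7 between cerebellum and brainstem (0.00222% of all). At an unadjusted p under 0.05 that count was also 0 of 7, against 757 of all. Between liver and cerebellum, and between liver and brainstem, 0 of 7 passed as well (0.00888% of all in each). At an unadjusted p under 0.05 the counts there were 1 and 2 of 7, against 1793 and 2111 of all. Both comparisons with liver use the liver values of Oas1g known at the choice and are descriptions only.

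The Knock-In arrays that read high for Oas1g tended to read high for Oas2 and Oasl2. Those with the labelled numbers 3 and 4 had the 2 highest Knock-In values of Oas1g, Oas2 and Oasl2 in cerebellum, brainstem and liver alike. The other measured members did not show this in every tissue. The labels do not say whether a number marks one mouse in all tissues. Over all 24 arrays, deviations from the group means correlated at 0.71 between Oas1g and Oas2, at 0.64 between Oas1g and Oasl2 and at 0.64 between Oas2 and Oasl1. For the other 18 of the 21 pairs of members the correlation ran from -0.31 to 0.61. These are descriptions, since values of one array share its RNA and its hybridization.

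**Figure D3:**
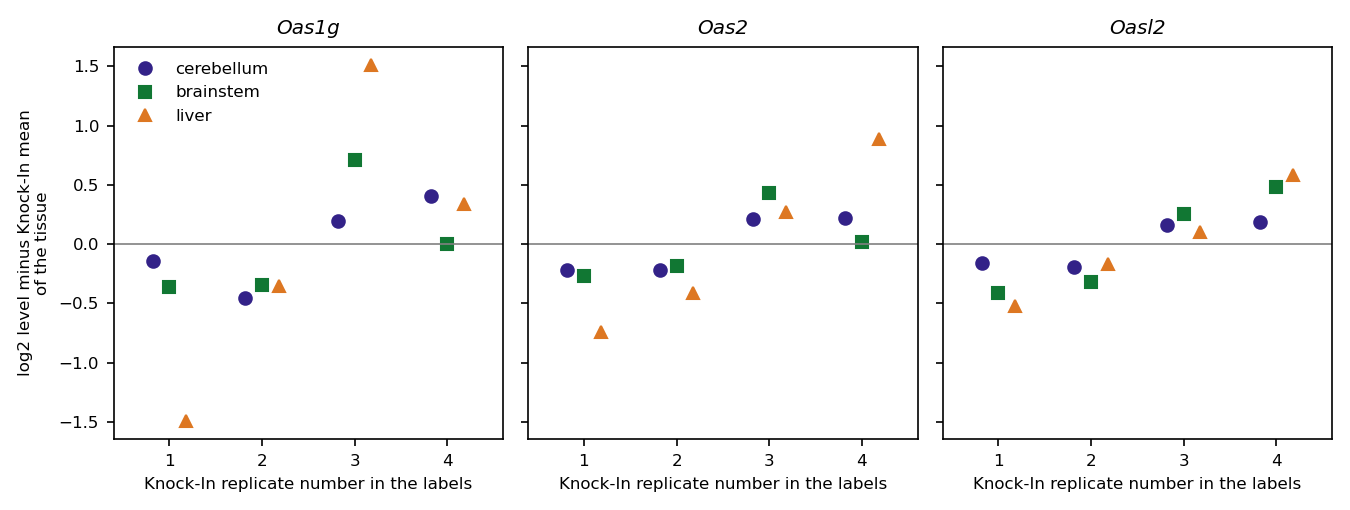
Log2 level minus the Knock-In mean of the tissue (vertical axis) for Oas1g, Oas2 and Oasl2 on the Knock-In arrays, by the replicate number in the labels (horizontal axis) and tissue (marker). Numbers 3 and 4 lie above 1 and 2 for each gene in each tissue, and Oas1g in liver runs from -1.49 to 1.51.

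The genes outside the family most like Oas1g in these deviations were Gm9706 (r = 0.91 over 24 arrays), Ifi27 (0.87), Trim30a (0.86), Gbp3 (0.84) and Irf7 (0.82). The largest deviations of Oas1g, -1.49 and 1.51, were those of Knock-In liver replicates 1 and 3, and these 2 arrays weigh heavily in its r values. Ifi27, Trim30a and Gbp3 are interferon-induced genes and Irf7 is the transcription factor named above. Those most like Oasl2 were Ifi27l2a (0.83), the adenylate cyclase Adcy7 (0.82), the general transcription factor subunit Gtf2a1 (0.82), the complement component C4b (0.81) and Ms4a6d (0.81). The probe sets of the first group had liver differences from 0.96 to 1.87, and of the second only Ifi27l2a, at 1.46, had a liver difference above 0.28.

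Between tissues the members differed more widely than between genotypes in the brain. In the WT mice 6 of the 7 probe sets were called higher in liver than in cerebellum, where 37.3% of all probe sets were so called. Against brainstem 3 of 7 were called higher in liver (34.3% of all), and 3 of 7 were called lower in cerebellum than in brainstem (28.2% of all). The median difference of the 7 was 1.15 between liver and cerebellum, 0.29 between liver and brainstem and -0.44 between cerebellum and brainstem, and that of all probe sets -0.08, -0.16 and -0.07. Of the 7 members, 7 averaged below the array median in WT cerebellum, 5 in WT brainstem and 4 in WT liver. In bulk tissue, fewer cells of a type and less RNA per cell cannot be told apart.

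Oasl1 had the largest tissue difference. It was higher in WT liver by 2.29 (SE 0.34) against cerebellum (adjusted p = 1.79e-06) and by 2.29 against brainstem (adjusted p = 1.81e-06), with no overlap of any liver array with any brain array. The Oas1c values followed a graded order, with 4.06 in WT liver, 3.36 in brainstem and 2.92 in cerebellum. Each step passed the threshold, at 0.71 between liver and brainstem (adjusted p = 3.55e-08) and 0.44 between brainstem and cerebellum (adjusted p = 0.000101). These means stood at the percentiles 46.7, 31.6 and 15.3 among all probe sets, and detection calls were not used. All WT liver arrays of Oas1c lay between 4.03 and 4.08. Its SD there was 0.02, the smallest of any group of the 7 probe sets.

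Oasl2 was low in cerebellum, at 3.79 ± 0.19 (SD, n = 4), and higher in brainstem, at 5.15 ± 0.45 (SD, n = 4), and in liver, at 5.09 ± 0.35 (SD, n = 4). The steps from cerebellum to liver, 1.30 (adjusted p = 2.64e-05), and to brainstem, 1.36 (adjusted p = 4.44e-05), passed, whereas liver and brainstem differed by less than their spread in the deposited values (-0.06, adjusted p = 0.832). After quantile normalization over all 24 arrays that last difference was 0.90 with liver higher, so that its direction depends on the scaling. Oas2 was likewise lowest in cerebellum, at 3.25, against 3.90 in liver (adjusted p = 0.0183) and 3.99 in brainstem (adjusted p = 0.0157). The adjusted p of these rose to 0.132 and 0.18 with that normalization.

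Oas1g stood at 5.75 in WT liver, 5.10 in brainstem and 4.31 in cerebellum. The first exceeded the last by 1.44 (SE 0.41, adjusted p = 0.00251), while neither neighbouring step passed (adjusted p = 0.145 for liver against brainstem and 0.119 for cerebellum against brainstem). With the replicate number as a block the second step passed (adjusted p = 0.0306), but whether the number pairs the tissues stays undecided. After quantile normalization over all arrays the differences of liver from cerebellum and brainstem were 2.22 and 1.64, and the latter passed (adjusted p = 0.000315). Oas3 was higher in liver by 0.21 against cerebellum (adjusted p = 0.0305) and by 0.24 against brainstem (adjusted p = 0.0143), and the first of these turned to -0.01 after quantile normalization over all arrays. Oas1b did not pass in any of the 3 tissue comparisons, with differences of 0.06, 0.29 and 0.23. Without WT liver replicate 1 the call of Oas3 between liver and cerebellum was lost (0.18, adjusted p = 0.0713), the difference of Oas1b between them turned to -0.16 and that of Oasl2 between liver and brainstem to 0.06, and the other 8 calls that involve liver were kept.

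The pathway around the family was read from lists of genes, each represented by its brightest probe set. In cerebellum and brainstem 0 of the 52 measured genes of the 6 interferon lists passed the threshold (0.0444% and 0.0155% of all probe sets). The lowest unadjusted p in cerebellum belonged to Irf3, a transcription factor downstream of nucleic acid sensors, at 0.21 (SE 0.08, unadjusted p = 0.0121), and to Ifitm3, which blocks virus entry, at 0.47 (SE 0.20, unadjusted p = 0.0291). In brainstem they belonged to Cgas, the sensor of cytosolic DNA, at 0.29 (SE 0.14, unadjusted p = 0.0503), and to Sting1, which acts downstream of it, at 0.26 (SE 0.14, unadjusted p = 0.078). The adjusted p of all 4 was 1. At an unadjusted p under 0.05 there were 2 of 52 genes in cerebellum, Irf3 and Ifitm3, and 0 in brainstem. Over all 45037 probe sets the counts were 1617 and 1877, so that nothing is read from the 2 genes.

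In liver, where no test is attached for the same reason as above, 3 of the 52 passed the threshold of the model (0.147% of all probe sets). Usp18, which removes the ubiquitin-like Isg15 and damps interferon signalling, was higher by 2.28 (SE 0.41), Irf7 by 1.87 (SE 0.38) and Ifi27 by 1.68 (SE 0.26). Usp18 and Ifi27 separated the genotypes, and Irf7 did not. The paper lists this probe set of Ifi27, and the one compared with Oas1g above, under the name Ifi27l1. It reports that quantitative PCR in tissue of other animals did not find the change of Ifi27l1 again. Among the 19 measured interferon-induced effectors 16 lay above 0, with a median of 0.68 against -0.0097 for all probe sets. Ifit1 differed by 1.62, Ifit3 by 1.19 and Trim30a by 1.16, none of them called.

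The upstream lists moved less in liver. Of 9 interferon receptors and kinases 0 were called, with a median of 0.12, and the kinases Tyk2 and Jak1 differed by 0.38 and 0.26. Of 8 transcription factors 1 was called, Irf7, with Stat2 at 0.59 and Irf9 at 0.53. Of 11 nucleic acid sensors 0 were called, with a median of 0.17 and the largest differences at Zbp1 (0.94) and Ifih1 (0.56). The feedback inhibitors Socs1 and Socs3 differed by 0.08 and -0.03. On the output side of the synthetases Abce1, a ribosome recycling factor, and Pde12, which breaks oligoadenylates down, were measured, at -0.07 and -0.05.

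**Figure D4:**
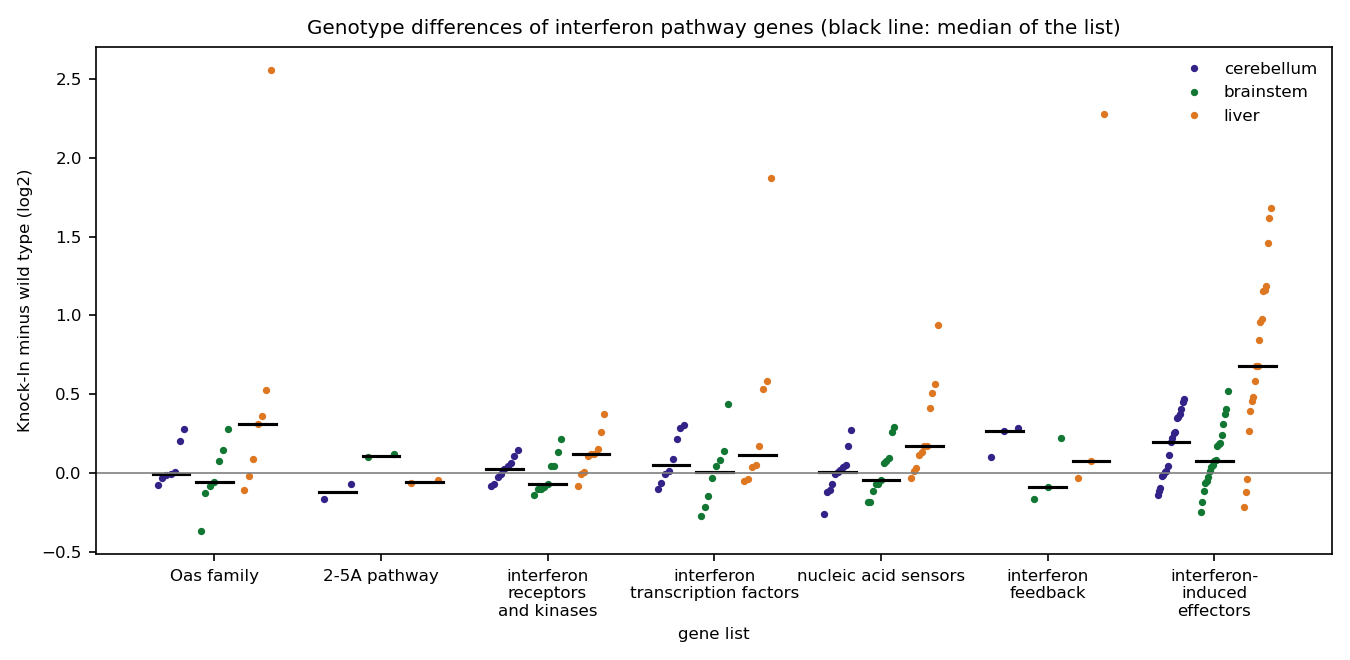
Knock-In minus WT difference (vertical axis, log2) of the genes of 7 lists (horizontal axis) in 3 tissues, 1 point per gene, with the median as a black line. In liver the interferon-induced effectors have a median of 0.68 and the receptors and kinases 0.12, while in the brain regions no point lies above 0.52.

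Markers of other cell types were read beside these values. In liver 10 of 14 Kupffer cell and macrophage markers lay above 0 and 1 was called, Cd163, the haemoglobin scavenger receptor, at -1.20. None of the 14 averaged below the array median in liver, and their summed level, in log2, ran from 12.0 to 13.0 on the WT and from 12.1 to 13.5 on the Knock-In arrays. All 8 endothelial markers lay above 0, 0 of them called, with a median of 0.17 and the largest difference at Clec4g (0.41), and their summed level ran from 10.3 to 10.8 in WT and from 10.6 to 10.96 in Knock-In liver. Of 12 lymphocyte markers 5 lay above 0, with a summed level of 8.57 to 8.76 in WT and 8.55 to 8.79 in Knock-In liver, and of 4 plasmacytoid dendritic cell markers 2 did, with 7.25 to 7.69 and 7.36 to 7.80. The microglia list, whose genes macrophages share, had 7 of 11 above 0 in liver and a median of 9e-04. The part of these cells in the liver values of the Oas genes was not tested.

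In cerebellum 5 of 6 choroid plexus and ependyma markers lay above 0, with a median of 0.66, and 0 were called. Their summed level ran from 10.0 to 12.8 on the WT and from 12.5 to 12.9 on the Knock-In arrays, and 10 of 11 microglia markers lay above 0 there with a median of 0.14. Their part in the cerebellar difference of Oas2 was not tested. In brainstem 5 of 6 choroid plexus markers and 8 of 11 microglia markers lay above 0, with medians of 0.17 and 0.03.

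As neighbours of Atxn2, the members can be set beside the genes that lie between them and the targeted locus. Atxn2 itself was not called in any tissue, and its brightest probe set had a Knock-In minus WT value of -0.0029 for cerebellum, -0.14 for brainstem and 0.0080 for liver. Of the 21 genes between Oas1d and Atxn2, 13 had a probe set, 24 in all. Of these 24, 2 passed in cerebellum (0.0444% of all probe sets), 1 in brainstem (0.0155%) and 1 in liver (0.147%). Adam1a, a sperm membrane metalloprotease, fell in cerebellum by 0.93 (SE 0.16, adjusted p = 0.0225) by its brighter probe set. That probe set was also at -0.53 in brainstem and -0.50 in liver (SE 0.16 in each), not called. The dimmer Adam1a probe set differed by -0.08 in cerebellum, -0.0035 in brainstem and -0.03 in liver. The paper lists another Adam1a probe set, not named by Adam1a alone here, as significantly lower in both brain regions. It also reports that quantitative PCR in tissue of other animals found Adam1a lower in both. One of 3 probe sets of Aldh2, the mitochondrial aldehyde dehydrogenase, fell in cerebellum by 0.61 (SE 0.11, adjusted p = 0.0316) and in brainstem by 1.25 (adjusted p = 1.19e-06), and was at -1.23 in liver (SE 0.11). The brightest Aldh2 probe set differed by -0.13, -0.04 and -0.17 in the same order and was not called. The lowest unadjusted p among the others belonged to Erp29, a chaperone of the endoplasmic reticulum, at -0.30 in cerebellum and -0.37 in brainstem, and to Trafd1, an interferon-inducible regulator of signalling, at -0.43 in brainstem, with adjusted p from 0.752 to 1.

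Oas1g lies between Oas1h and Oas1a in the gene table, and Oas1d is the next measured gene beyond it. Oas1h differed by -0.25 in cerebellum, -0.18 in brainstem and -0.23 in liver (SE 0.11 in each), and Oas1d, an inactive relative known from oocytes, by -0.08, -0.06 and -0.15 (SE 0.08 in each). Oas1e and Oas1f, further along, differed in liver by 0.16 (SE 0.17) and -0.24 (SE 0.13). These 4 Oas genes are no members and were named after their values had been seen, and 0 of them were called in any tissue, although the 95% intervals of Oas1h in cerebellum, -0.47 to -0.03, and in liver, -0.45 to -0.01, lay below 0. The order along the chromosome from Oas2 to Atxn2 thus held 1 probe set in liver above 1 among the brightest ones, that of Oas1g.

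**Figure D5:**
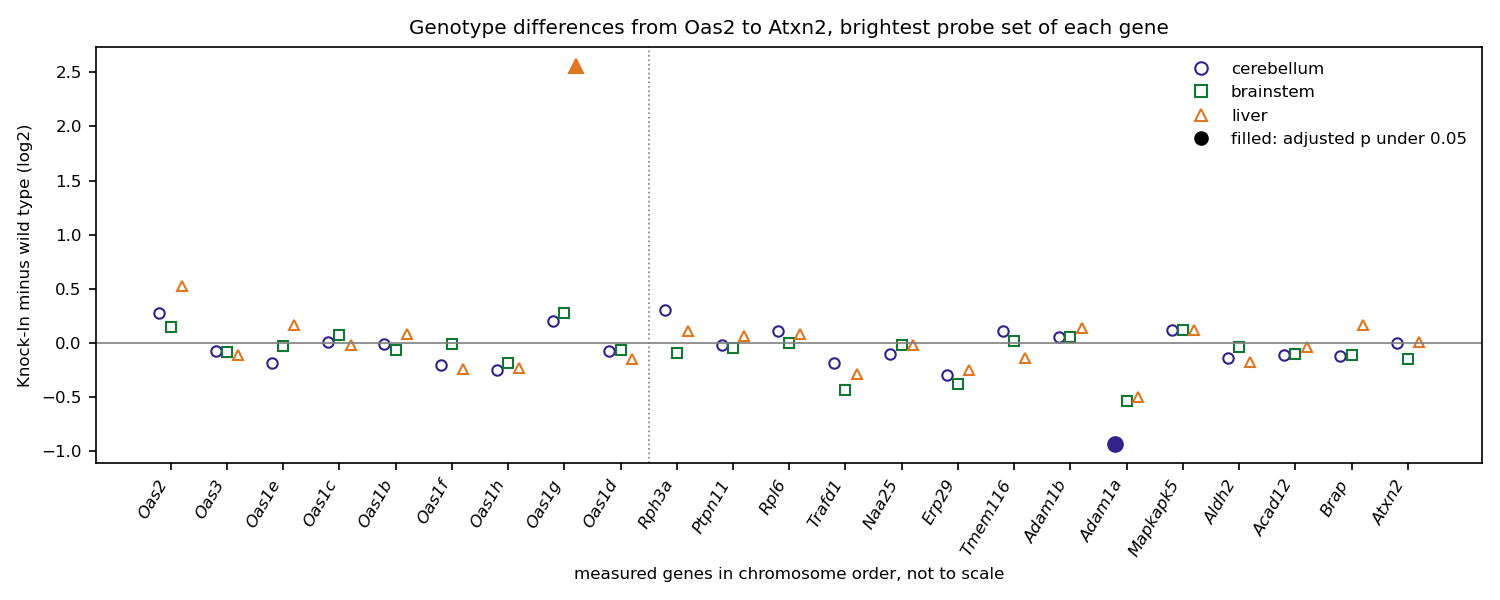
Knock-In minus WT difference (vertical axis, log2) of the brightest probe set of each measured gene from Oas2 to Atxn2 in chromosome order (horizontal axis, not to scale), with filled symbols for an adjusted p under 0.05 and a dotted line after the last Oas gene. Oas1g in liver (2.56) and Adam1a in cerebellum (-0.93) are the filled symbols.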

How the data were processed

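The 24 samples were run on 1-colour Affymetrix arrays, and the authors made the deposited log2 values by RMA, which subtracts background, equalises the arrays and gives 1 value per probe set. The submitters' processing notes name R 2.7.0. Tissue, genotype and replicate number come from the labels, and the age from the methods, which count 4 mice per genotype. Neither says whether a number marks 1 mouse in all tissues.

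Of 45141 rows, 104 controls were left out. Platform annotation named 28898 of the 45037 probe sets by 1 gene, 551 by several and 15588 by none, with symbols updated through the gene table of GRCm38.p6, used only for names and gene order. No source names a genome build for the values.

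Each probe set was fitted with limma 3.58.1 (R 4.3.3) on the 24 arrays together, with a mean for each of the 6 groups, and Benjamini-Hochberg adjustment over all probe sets within a comparison. A call is an adjusted p under 0.05. The fit shares 1 spread per probe set among tissues, while the median SD between arrays was 0.18 in liver and 0.12 in the brain regions. The procedure was run on simulated data drawn with 1 spread per probe set in all tissues, which does not cover such unequal spread. Promoters were aligned with Biopython 1.88, and figures drawn with matplotlib 3.10.9 in Python 3.11.15.

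The members and the gene lists were chosen with earlier results of these data known. Of 139 genes in the 15 lists beside the family, 16 were not measured, and 3 second names of listed genes were counted once. Named were all members, Atxn2, per list and tissue up to 4 genes of lowest p and every called gene, the called genes and up to 4 of lowest p between the Oas genes and Atxn2, and the 5 genes most like Oas1g and Oasl2. Deviations of Knock-In and WT arrays of the same number correlated between -0.30 and 0.21 within a tissue, which showed no pairing of the genotypes by number. Arrays of one genotype and number correlated at 0.22 to 0.38 between cerebellum and brainstem in all 8 pairs. Against liver they correlated at 0.04 to 0.29, all positive but not over 0.1 in every pair. Arrays of unequal number were not compared, so that these values do not decide whether the number pairs any of the tissues. Alternatives were a fit of the compared tissues alone, the number as a block, a random block, a filter, 2 normalizations, array weights, another prior, gene means, 1 F statistic and leaving out each array.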

Additional observations from a re-analysis of the deposited data

How the results depend on the processing

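The counts of called Oas probe sets in cerebellum and brainstem between the genotypes stayed at 0 in all 18 alternatives each, while calls among all probe sets ran from 5 to 32 in cerebellum (20 in the main model) and from 0 to 25 in brainstem (7). In liver the count of 1, Oas1g, became 0 when liver was fitted alone and 0 with the replicate block, and stayed at 1 with each array left out, while the calls among all probe sets went from 66 to 0, 28 with the block, 231 with array weights, 147 with quantile normalization over all 24 arrays (added after seeing the data), 32 with 1 F statistic and 2878 without WT liver replicate 1. The correlations given above showed no pairing of the genotypes by replicate number. Whether the number pairs the tissues stays undecided, since arrays of unequal number were not compared. With the replicate block 5 of 7 were called higher in WT liver than in brainstem in place of 3 (Oas1b and Oas1g added), Oas1g was also called lower in WT cerebellum than in brainstem (adjusted p = 0.0306, and 0.0145 with those tissues fitted alone), and no other count moved by over 1.5 times. The filter on dim probe sets kept only Oas1g and Oasl2, so that the tissue counts fell to 2, 0 and 1 with fewer probe sets tested. With liver Knock-In replicate 1 left out, 1 of 7, Oas1g, crossed the threshold for the effect in liver minus that in cerebellum, against 0 otherwise (range 0 to 1), a description since the liver values of Oas1g were known at the choice of the family. Leaving out single arrays, the WT tissue counts ran from 4 to 6, 2 to 4 and 2 to 3. In the main model 37.3%, 34.3% and 28.2% of all probe sets were called in the same directions. The shares of all probe sets under the alternatives are not given, so that nothing is read from these tissue counts.

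The single differences listed here reversed under at least 1 alternative. With array weights Oas1b changed to -0.10 between WT liver and cerebellum, Oasl1 to 0.0166 in cerebellum between the genotypes and to -0.0076 between WT cerebellum and brainstem, and Oasl2 to 0.0151 in cerebellum between the genotypes and to 0.12 between WT liver and brainstem. With quantile normalization over all arrays Oas3 between WT liver and cerebellum became -0.0148 and Oasl2 between WT liver and brainstem 0.90. With arrays left out in turn, the differences between the genotypes in cerebellum ran from -0.113 to 0.0623 for Oas1b, -0.0302 to 0.0613 for Oas1c, -0.0872 to 0.0997 for Oasl1 and -0.114 to 0.0427 for Oasl2, and that of Oas2 in brainstem from -0.0108 to 0.26. In liver they ran from -0.0566 to 0.303 for Oas1b, -0.0718 to 0.0231 for Oas1c and -0.0298 to 0.72 for Oasl1, and Oas1c was also above 0 with either quantile normalization and with array weights (0.0145 to 0.028). Between WT tissues they ran from -0.16 to 0.20 for Oas1b (liver and cerebellum), -0.244 to 0.0268 for Oas2 and -0.218 to 0.0815 for Oasl2 (liver and brainstem), and -0.021 to 0.0989 for Oas3 and -0.104 to 0.0822 for Oasl1 (cerebellum and brainstem). The call of Oas3 between liver and cerebellum was lost without WT liver replicate 1, 2 or 4 or WT cerebellum replicate 3, that of Oas2 without WT liver replicate 4, and those of Oas2 between cerebellum and brainstem and Oas3 between liver and brainstem without WT brainstem replicate 2. The causes were not tested. With 4 arrays a group and levels near the low end of the scale, small changes were not detectable.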
